A study of Mus musculus with 5 samples.

Results

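A set of 44 genes of the mitotic spindle, kinetochore and cytokinesis was followed in ID8 cells, an established mouse ovarian surface epithelial cancer line that forms tumours and ascites in the peritoneum. The genes were chosen by name but with earlier results of these data known, so counts over them describe a list not drawn blind to the data. Of the 44, 42 were measured by an array probe set annotated to exactly 1 gene, out of 12393 genes measured in all. The cyclin gene Ccnb1 and the chromosomal passenger gene Cdca8 had no such probe set and were not analysed here. Where a gene had several probe sets, the brightest on average was used.

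The study compared ID8 cells kept in DMEM with 10% ascites fluid taken from mice bearing ID8 tumours (2 arrays, replicates 2 and 3) with ID8 cells kept in DMEM with 10% fetal bovine serum, FBS (3 arrays, replicates 1, 2 and 3). The ascites culture lasted 7 days, and the labels leave unclear whether its medium also held FBS and how long the FBS culture lasted. The FBS samples are labelled parental ID8 cells and the ascites samples ID8 cells. No label states that replicates were separate cultures, so p values reflect array-to-array spread that may be only technical. The 5 Affymetrix arrays give 1 log2 signal per probe set, and changes are ascites minus FBS.

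Most mitotic genes are transcribed only in the late part of the cell cycle, so their transcripts mark dividing cells. In G1 and in cells arrested by the CDK inhibitor p21, the DREAM complex, built from the MuvB core and a pocket protein, keeps them silent. In dividing cells MuvB joins B-Myb and FOXM1 and activates the same genes. Their proteins drive entry into mitosis, attach chromosomes to the spindle, hold back anaphase until attachment is complete, and split the cell.

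Transcripts of the mitotic genes were lower in ascites-grown ID8 cells. Of the 42 measured genes, 41 had a lower mean in ascites, 38 were lower on every ascites array than on every FBS array, 1 was higher on every ascites array, and 21 were at least 2-fold lower by the means. Over all 12393 genes the corresponding shares were 49.7%, 19.4%, 18.6% and 3.38%. After Benjamini-Hochberg adjustment over all genes in limma, 12 of the 42 fell and 0 rose, against 2.59% of all genes that fell and 2.69% that rose. At an unadjusted p under 0.05, 36 of the 42 were lower and 1 was higher (12.5% and 11.7% of all genes). The median log2 change was -1.02 over the 42 genes, or 2.03-fold lower at the median, and 0.00 over all genes. Since whole cultures were measured, fewer dividing cells and less transcript in each dividing cell cannot be told apart.

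The number of calls rested on the arrays used. It was 0 of 42 without FBS replicate 1 (28 lower at an unadjusted p under 0.05), without FBS replicate 2 (28), without ascites replicate 2 (30) or without ascites replicate 3 (16), and 22 without FBS replicate 3. Each gene called below shares this limit. The median over the 42 genes ran from -1.16 without ascites replicate 2 to -0.83 without FBS replicate 3.

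**Figure D1:**
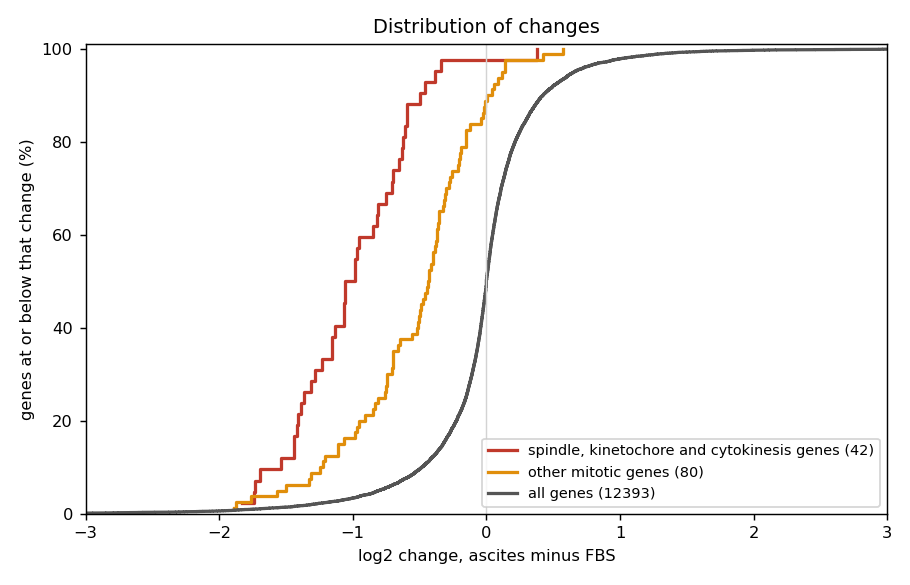
Cumulative share of genes (percent, vertical axis) at or below each log2 change, ascites minus FBS (horizontal axis), for the 42 mitotic genes, for 80 other measured mitotic genes and for all 12393 genes. The curve of the 42 genes lies to the left, with a median of -1.02, against -0.43 for the other mitotic genes and 0.00 for all genes.

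The arrays within a group were not alike for these genes. FBS replicate 3 read higher than FBS replicates 1 and 2 for 39 of the 42 genes, and for 5162 of all 12393 genes. Its median difference from the mean of those arrays was 0.43 over the 42 genes and 0.01 over all genes. Ascites replicate 2 read higher than ascites replicate 3 for 40 of the 42 genes, and for 5658 of all 12393 genes. The median difference was 0.40 over the 42 genes and 0.00 over all genes. Between FBS replicates 1 and 2 the median difference over the 42 genes was 0.00. Against the FBS mean, the median change was -0.85 on ascites replicate 2 and -1.16 on ascites replicate 3. Leaving out 1 array moved the change by over 1.5 times, or turned it, for 11 of the 42 genes. Without ascites replicate 3 the changes were -0.03 for Cdc20, -0.02 for Hmmr, 0.01 for Ndc80, -0.29 for Prc1, -0.26 for Ube2c, -0.40 for Kif22, -0.48 for Kif4, -0.49 for Ttk, -0.68 for Kif20a and -0.73 for Kif2c. Without ascites replicate 2 they were -0.89 for Cdc20, -0.97 for Hmmr, -0.78 for Ndc80, -0.89 for Prc1, -0.93 for Ube2c and 0.23 for Pttg1, and without FBS replicate 3 the change was -0.48 for Kif4. Of these 11 genes, 0 passed the threshold with all arrays.

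**Figure D2:**
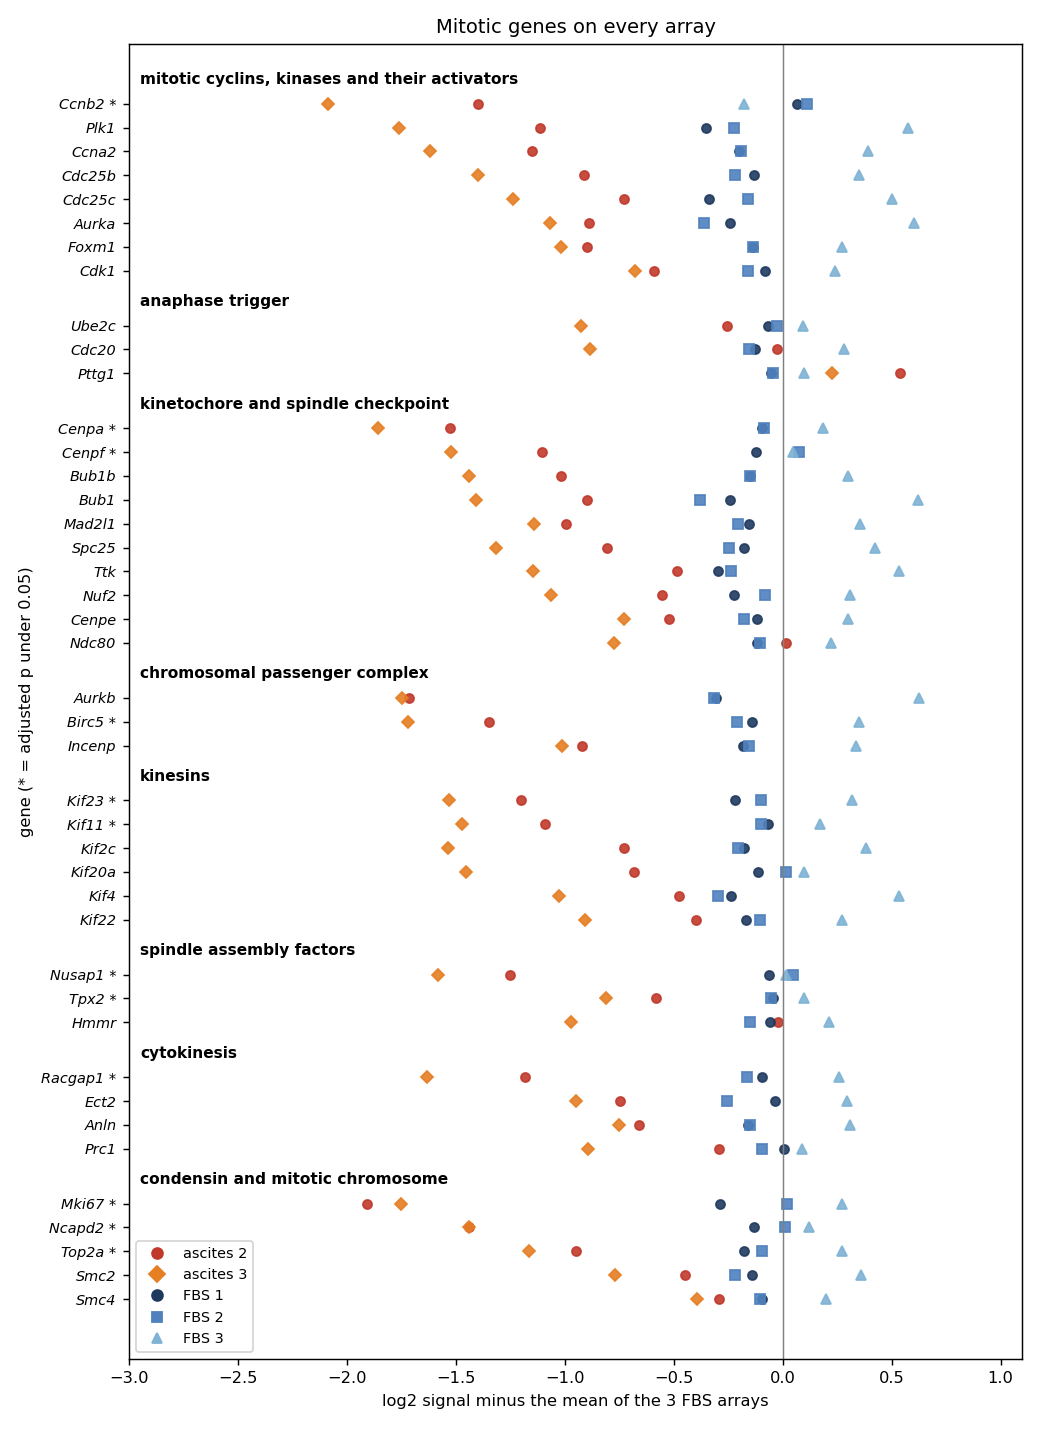
Log2 signal of each of the 42 genes on each array minus the mean of the 3 FBS arrays (horizontal axis), with genes grouped by role down the page and an asterisk at an adjusted p under 0.05. Red circles are ascites replicate 2, orange diamonds ascites replicate 3, and blue symbols the FBS arrays. Both ascites arrays lie left of all FBS arrays for 38 genes and right of them for Pttg1, and ascites replicate 3 lies furthest left for most genes.

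Of 7 epithelial and mesothelial markers of the line, Krt8, Krt18, Krt19, Wt1, Msln and Upk3b lay between 10.83 and 14.63 on every array. These markers moved with the culture too: 6 of the 7 had a lower mean in ascites, with a median change of -1.43, and the keratin genes Krt18 (-1.43, adjusted p = 0.0361) and Krt19 (-0.88, adjusted p = 0.0428) fell. The largest decrease was that of Upk3b, a mesothelial marker, at 12.02 and 11.32 in ascites, against 14.63, 14.61 and 12.66 in FBS (-2.30, adjusted p = 0.16). FBS replicate 3 stood apart here as well, being the highest FBS array for 0 of the 7, and its median difference from the mean of the other FBS arrays was -0.91. Wt1 was at 11.17 and 10.83 in ascites, against 12.75, 12.72 and 11.83 in FBS, and Msln at 12.30 and 12.72 in ascites, against 12.45, 12.51 and 11.46 in FBS. The part of these markers in the change of the mitotic genes was not tested. Krt7 was at 5.37 and 5.12 on the ascites arrays, against 8, 8.08 and 5.66 on the FBS arrays. Of 14 markers of leukocytes, endothelium and erythroid cells, 0 passed limma's threshold and 0 had an unadjusted p under 0.05, and their median signal per array was 5.45 to 5.58 in ascites and 5.42 to 5.54 in FBS.

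Promoter sequences of the genes were searched for known words. The list is made of mitotic genes, described above as targets of MuvB, so the shares below do not depend on the arrays. MuvB is known to bind the cell cycle genes homology region, CHR, with the core TTTGAA, and NF-Y binds CCAAT boxes. RefSeq promoters of GRCm38.p6, reaching from 250 bases before the transcription start to 50 after it, were found for 36 of the 44 genes, with the first listed one used for Ect2 and Prc1, which had 2 each. TTTGAA on either strand was in 27 of the 36 promoters (75.0%), against 18.1% of all 27025 promoters of the table and 13.0% of the 9882 that belong to genes on the array. CCAAT on either strand was in 28 of 36 (77.8%), against 37.9% of all, and both words were in 24 of 36 (66.7%), against 7.12%. A TTTGAA whose first base lay within 50 bases of the start was in 24 of 36 (66.7%), against 4.92% of all, a window chosen after the matches were seen. An E2F word, TTTCCCGC or TTTGGCGC on either strand, was in 1 of 36 (2.78%). It was in 1.63% of all promoters and 2.67% of those of genes on the array. In 1 of the 36 promoters, matches of different words shared a base. A match is a description and not a bound site. Only these exact words were searched, so a promoter without TTTGAA is not shown to lack a CHR.

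The stretches below run from 120 bases before the start to 29 after it, counting the start as position 0. They show how the words are spaced in some promoters of genes that fell, beside Hmmr and Pttg1, which did not pass. The stretches of Kif11, Mki67, Ncapd2, Birc5 and Nusap1, which also fell, are not printed. Capitals mark TTTGAA and CCAAT or their reverse complements, TTCAAA and ATTGG.
Ccnb2, GRCm38.p6 chr9:70421525-70421674, minus strand: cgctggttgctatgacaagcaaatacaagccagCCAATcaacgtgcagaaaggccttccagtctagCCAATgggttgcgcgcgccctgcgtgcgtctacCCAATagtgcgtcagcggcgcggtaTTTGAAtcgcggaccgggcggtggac
Cenpa, GRCm38.p6 chr5:30666766-30666915, plus strand: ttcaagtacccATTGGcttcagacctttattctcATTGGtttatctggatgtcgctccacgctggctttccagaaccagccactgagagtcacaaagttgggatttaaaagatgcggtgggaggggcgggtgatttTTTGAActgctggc
Cenpf, GRCm38.p6 chr1:189688057-189688206, minus strand: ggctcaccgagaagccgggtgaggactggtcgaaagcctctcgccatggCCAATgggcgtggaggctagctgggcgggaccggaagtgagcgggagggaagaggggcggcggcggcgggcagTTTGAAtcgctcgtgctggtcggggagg
Kif23, GRCm38.p6 chr9:61946770-61946919, minus strand: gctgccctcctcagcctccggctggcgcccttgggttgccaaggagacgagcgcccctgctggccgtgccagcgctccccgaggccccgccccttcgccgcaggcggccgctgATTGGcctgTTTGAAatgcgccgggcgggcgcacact
Racgap1, GRCm38.p6 chr15:99651627-99651776, minus strand: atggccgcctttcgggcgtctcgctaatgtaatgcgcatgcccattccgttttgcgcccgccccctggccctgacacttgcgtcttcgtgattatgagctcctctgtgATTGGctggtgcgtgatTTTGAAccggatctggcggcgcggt
Top2a, GRCm38.p6 chr11:99024160-99024309, minus strand: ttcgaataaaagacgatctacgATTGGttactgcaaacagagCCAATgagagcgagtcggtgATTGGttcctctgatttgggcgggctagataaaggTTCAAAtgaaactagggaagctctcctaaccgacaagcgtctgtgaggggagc
Hmmr, GRCm38.p6 chr11:40733408-40733557, minus strand: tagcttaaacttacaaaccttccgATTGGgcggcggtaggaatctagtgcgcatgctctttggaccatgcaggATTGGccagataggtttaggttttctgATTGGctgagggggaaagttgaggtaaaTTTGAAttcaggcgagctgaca
Pttg1, GRCm38.p6 chr11:43425952-43426101, minus strand: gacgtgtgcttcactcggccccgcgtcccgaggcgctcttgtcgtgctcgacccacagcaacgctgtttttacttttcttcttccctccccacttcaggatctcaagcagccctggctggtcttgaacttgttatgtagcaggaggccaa
Within these stretches, the 3 CCAAT boxes of Ccnb2 begin at -87, -54 and -21 and its TTTGAA at 4. In Cenpa the inverted CCAAT boxes begin at -109 and -86 and TTTGAA at 16. Cenpf and Kif23 each have TTTGAA at 2, and Racgap1 has it at 5. In Top2a the word is inverted and begins at -23. Of the fallen genes not printed, Kif11 has the inverted word at -19. Mki67 has TTTGAA further from the start, at -116 and -98, and Ncapd2 at -123, while Birc5 and Nusap1 have neither TTTGAA nor CCAAT.

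The changes of genes with and without the word TTTGAA overlapped. Other forms of the CHR were not searched, so this does not compare genes with and without a CHR. The 26 measured genes with TTTGAA had a median log2 change of -1.02 (from -1.83 to -0.38), and the 8 measured genes whose promoter had none had -1.11 (from -1.53 to 0.38). Of the 11 genes that fell and have a promoter in the table, 9 held both words, and Birc5 and Nusap1 held neither. Over all genes on the array with such a promoter, the median change was 0.00 for the 1283 with TTTGAA and 0.00 for the 8599 without.

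Cyclins and kinases that bring cells into mitosis were lower on both ascites arrays in all 8 measured genes, with a median change of -1.07. Ccnb2, a mitotic cyclin that activates CDK1, was at 9.88 and 9.19 in ascites, against 11.34, 11.39 and 11.10 in FBS. It fell 3.34-fold (log2 change -1.74, SE 0.24, adjusted p = 0.0388), and unlike most of these genes it was lowest in FBS replicate 3 among the FBS arrays. Ccna2, the cyclin of S phase and mitotic entry, was at 10.04 and 9.57 in ascites, against 10.99, 11 and 11.58 in FBS. Its change of -1.39 (SE 0.26) missed the threshold (adjusted p = 0.0635). Cdk1, the mitotic kinase itself, had the smallest change of this group, with 10.93 and 10.84 in ascites, against 11.44, 11.36 and 11.76 in FBS (log2 change -0.64, adjusted p = 0.0836).

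The phosphatase genes Cdc25b and Cdc25c, whose products remove the inhibitory phosphates from CDK1, changed by -1.16 (adjusted p = 0.0793) and -0.98 (0.164) without passing. Plk1, the polo kinase of centrosome maturation and cytokinesis, was at 9.87 and 9.22 in ascites, against 10.63, 10.76 and 11.56 in FBS. The groups did not overlap, but FBS replicate 3 alone lay 0.87 above the mean of the other FBS arrays, and the change of -1.44 (SE 0.37) did not pass (adjusted p = 0.111). Aurka, the centrosome kinase, changed by -0.98 (adjusted p = 0.177), with FBS replicate 3 above the others by 0.90. Foxm1, the transcription factor that activates many of the genes described here, was at 8.17 and 8.05 in ascites, against 8.93, 8.93 and 9.34 in FBS. Its change of -0.96 (SE 0.16) lay just above the threshold (adjusted p = 0.0521), and another probe set of the gene gave -1.74.

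Of the 3 genes of the anaphase trigger, 0 passed the threshold, and their changes ran from -0.59 to 0.38. Cdc20, the activator of the anaphase-promoting complex, was at 11.68 and 10.82 in ascites, against 11.58, 11.55 and 11.99 in FBS, so ascites replicate 2 lay within the FBS values and ascites replicate 3 below them. The change was -0.46 (95% confidence interval -1.29 to 0.38, adjusted p = 0.453). Ube2c, the ubiquitin-conjugating enzyme of that complex, was at 12.34 and 11.67 in ascites, against 12.53, 12.57 and 12.69 in FBS (log2 change -0.59, adjusted p = 0.205). The median of the group's 3 genes was -0.03 without ascites replicate 3 and -0.89 without ascites replicate 2.

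Pttg1, which encodes securin, the inhibitor of separase, was the gene with a higher mean in ascites. It was at 12.95 and 12.64 in ascites, against 12.36, 12.37 and 12.51 in FBS, with no overlap. The log2 change of 0.38 (SE 0.12, 95% confidence interval 0.06 to 0.70) did not pass (adjusted p = 0.151). It passed upward with array weights, an alternative that gives arrays unequal weight (0.43, adjusted p = 0.0428). Its other probe sets gave 0.43 and, at a mean signal of 6.63, -0.06.

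**Figure D3:**
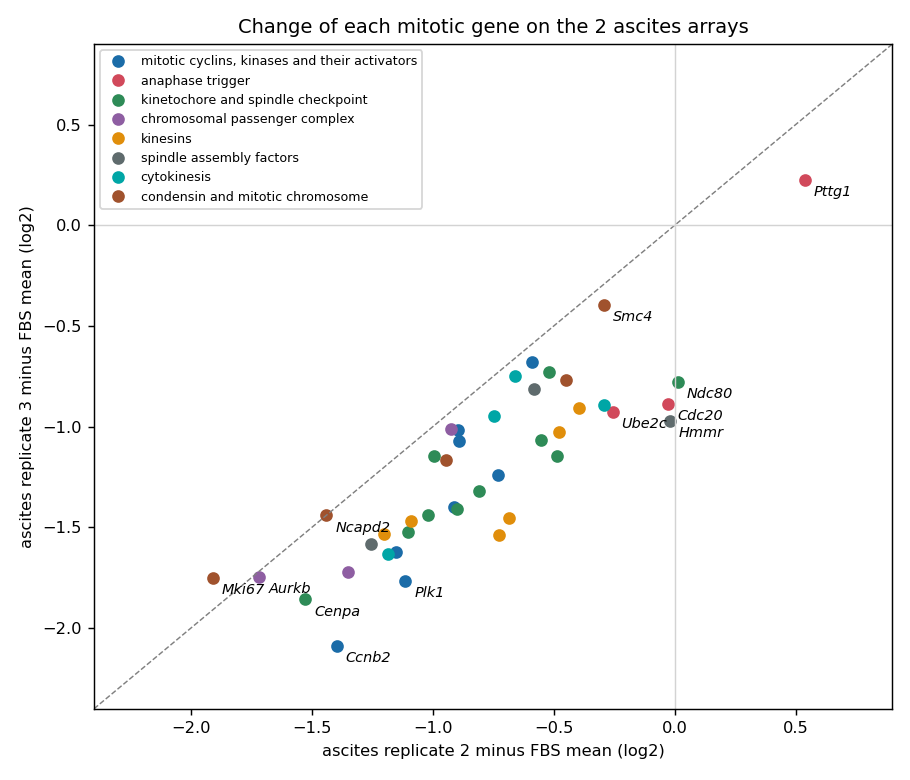
Log2 signal of each of the 42 genes on ascites replicate 2 minus the FBS mean (horizontal axis) against the same on ascites replicate 3 (vertical axis), coloured by role. The dashed line marks equal change. Most points lie below it, Cdc20, Hmmr and Ndc80 lie near 0 on ascites replicate 2, and Pttg1 lies above 0 on both arrays.

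Kinetochore and checkpoint genes were all lower by their means, with a median change of -1.06 over 10 genes, and 2 of them fell. Cenpa, the histone H3 variant that marks the centromere, was at 9.87 and 9.54 in ascites, against 11.30, 11.31 and 11.58 in FBS. It fell 3.23-fold (log2 change -1.69, SE 0.15, adjusted p = 0.0207). Cenpf, a large protein of the outer kinetochore, was at 9.24 and 8.82 in ascites, against 10.22, 10.42 and 10.39 in FBS, and fell 2.49-fold (adjusted p = 0.0301). With the mean of its probe sets, the other of which gave -0.37, the change was -0.84 and the call was lost (adjusted p = 0.0501). For the chosen probe sets of both genes the gap between the groups was wider than the spread within either.

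The checkpoint genes, whose products delay anaphase until every kinetochore is attached, were lower without passing. Bub1b, which encodes BUBR1, changed by -1.23 (SE 0.21, adjusted p = 0.0553), Mad2l1, which encodes MAD2, by -1.07 (adjusted p = 0.0651), the kinase gene Bub1 by -1.16 (adjusted p = 0.163) and the kinase gene Ttk by -0.82 (adjusted p = 0.267). Within the NDC80 complex, which holds microtubules at the kinetochore, the genes differed in their overlap. Ndc80 was at 9.19 and 8.40 in ascites, against 9.06, 9.07 and 9.40 in FBS, the smallest change of the group (-0.38, 95% confidence interval -1.13 to 0.36, adjusted p = 0.476). Nuf2, its partner, changed by -0.81 (adjusted p = 0.136) and Spc25 by -1.06 (adjusted p = 0.114), and neither overlapped. The differences between these subunits were not tested. Cenpe, the kinesin that carries chromosomes to the spindle equator, changed by -0.62 (adjusted p = 0.133).

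The chromosomal passenger complex, which corrects faulty attachments and later steers cytokinesis, had the lowest median of the roles, -1.53 over 3 measured genes. Birc5, which encodes survivin, was at 10.19 and 9.82 in ascites, against 11.40, 11.33 and 11.89 in FBS, and fell 2.90-fold (log2 change -1.53, SE 0.23, adjusted p = 0.0433). Aurkb, the kinase of the complex, was at 8.17 and 8.14 in ascites, against 9.58, 9.57 and 10.51 in FBS. Its change of -1.73 (SE 0.34) was among the largest of the 42 genes, yet FBS replicate 3 stood 0.94 above the other FBS arrays, and it did not pass (adjusted p = 0.0676). Without that array the change was -1.42 (adjusted p = 0.00737 in limma). That fit rests on FBS replicates 1 and 2, which lay close together over all genes. The SD of their difference was 0.117, against 0.427 for either with FBS replicate 3. Whether replicates 1 and 2 are technical repeats was not tested, so that adjusted p may reflect only technical spread. Incenp, the scaffold of the complex, had the smallest change, with 11.18 and 11.09 in ascites, against 11.92, 11.95 and 12.44 in FBS (-0.97, adjusted p = 0.0676).

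All 6 kinesin genes were lower on both ascites arrays, with a median change of -1.10, and 2 fell. Kif23, the motor subunit of centralspindlin, was at 8.59 and 8.26 in ascites, against 9.57, 9.69 and 10.11 in FBS, and fell 2.58-fold (log2 change -1.36, SE 0.21, adjusted p = 0.0451). Kif11, which pushes the spindle poles apart, was at 9.21 and 8.83 in ascites, against 10.23, 10.20 and 10.47 in FBS, and fell 2.43-fold (SE 0.16 on the log2 scale, adjusted p = 0.0332). The FBS values of Kif11 lay close together.

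The remaining kinesins did not pass. Kif2c, which depolymerises microtubules at centromeres, was at 9.07 and 8.26 in ascites, against 9.62, 9.59 and 10.18 in FBS (-1.13, adjusted p = 0.134). With the mean of its probe sets the change was -0.64. Kif20a, which brings the passenger complex to the midzone, was at 9.53 and 8.76 in ascites, against 10.10, 10.23 and 10.31 in FBS (-1.07, adjusted p = 0.0925). Kif4, a chromosome-bound motor, changed by -0.75 (adjusted p = 0.28). Kif22, which pushes chromosome arms outward, had the smallest change, with 11.21 and 10.70 in ascites, against 11.44, 11.50 and 11.88 in FBS (-0.65, adjusted p = 0.177), while its other probe sets gave -1.11 and -1.14. The kinesin median was -0.71 without ascites replicate 3 and -1.46 without ascites replicate 2.

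Among spindle assembly factors, 2 of 3 genes fell. Nusap1, which bundles microtubules near chromosomes, was at 9.53 and 9.20 in ascites, against 10.72, 10.83 and 10.80 in FBS. It fell 2.67-fold (log2 change -1.42, SE 0.12, adjusted p = 0.0191), with an FBS spread of only 0.06 (SD, n = 3). Tpx2, the activator of Aurora A, was at 9.31 and 9.08 in ascites, against 9.85, 9.84 and 9.99 in FBS, and fell 1.62-fold (SE 0.10 on the log2 scale, adjusted p = 0.0411). Hmmr, a spindle and centrosome protein also known as a hyaluronan receptor, was at 11.13 and 10.18 in ascites, against 11.09, 11 and 11.36 in FBS. Ascites replicate 2 lay among the FBS arrays, and the change was -0.49 (95% confidence interval -1.36 to 0.37, adjusted p = 0.435). Its promoter, printed above, holds TTTGAA and inverted CCAAT boxes.

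Cytokinesis genes were lower on both ascites arrays in 4 of 4, with a median of -0.78, and 1 fell. Racgap1, the GTPase-activating subunit of centralspindlin and partner of the Kif23 product, was at 9.33 and 8.88 in ascites, against 10.42, 10.35 and 10.77 in FBS. It fell 2.65-fold (log2 change -1.41, SE 0.20, adjusted p = 0.0417), against -1.36 for Kif23, each by its brightest probe set. The other probe set of Racgap1 gave -1.13, and the mean of all Kif23 probe sets gave -0.87. Likeness between these genes was not tested. Ect2, the exchange factor that centralspindlin recruits to activate RhoA, changed by -0.85 (adjusted p = 0.083), and the contractile ring scaffold gene Anln by -0.70 (adjusted p = 0.101). Prc1, which bundles the midzone, had the smallest change, with 10.92 and 10.32 in ascites, against 11.22, 11.12 and 11.30 in FBS (-0.59, adjusted p = 0.175).

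Condensin and mitotic chromosome genes showed the widest range of changes, from -1.83 to -0.34, and 3 of 5 fell. Mki67, the proliferation marker Ki-67 that coats mitotic chromosomes, was at 9.52 and 9.68 in ascites, against 11.14, 11.45 and 11.70 in FBS. It fell 3.56-fold (log2 change -1.83, SE 0.19, adjusted p = 0.0245), and here ascites replicate 3 read above ascites replicate 2. Top2a, the topoisomerase that untangles sister chromatids, was at 11.48 and 11.26 in ascites, against 12.25, 12.33 and 12.70 in FBS, and fell 2.08-fold (adjusted p = 0.0497). Taking the mean of all probe sets in place of the brightest, its change was -0.46 (adjusted p = 0.119).

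Of the 3 condensin subunits among these genes, 1 fell. Ncapd2, a subunit of condensin I only, was at 8.55 on both ascites arrays, against 9.86, 10.00 and 10.11 in FBS. It fell 2.71-fold (log2 change -1.44, SE 0.09), with the lowest adjusted p of the 42 genes (0.0158). Smc2 and Smc4, the ATPase core shared by both condensins, did not pass. Smc2 was at 10.89 and 10.57 in ascites, against 11.20, 11.12 and 11.70 in FBS (log2 change -0.61, adjusted p = 0.202). Smc4 had the smallest decrease of the 42 genes, with 11.58 and 11.48 in ascites, against 11.78, 11.77 and 12.07 in FBS (log2 change -0.34, 95% confidence interval -0.66 to -0.02, adjusted p = 0.184), and its other probe sets gave -0.36 and -0.37. Differences between the subunits were not tested.

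**Figure D4:**
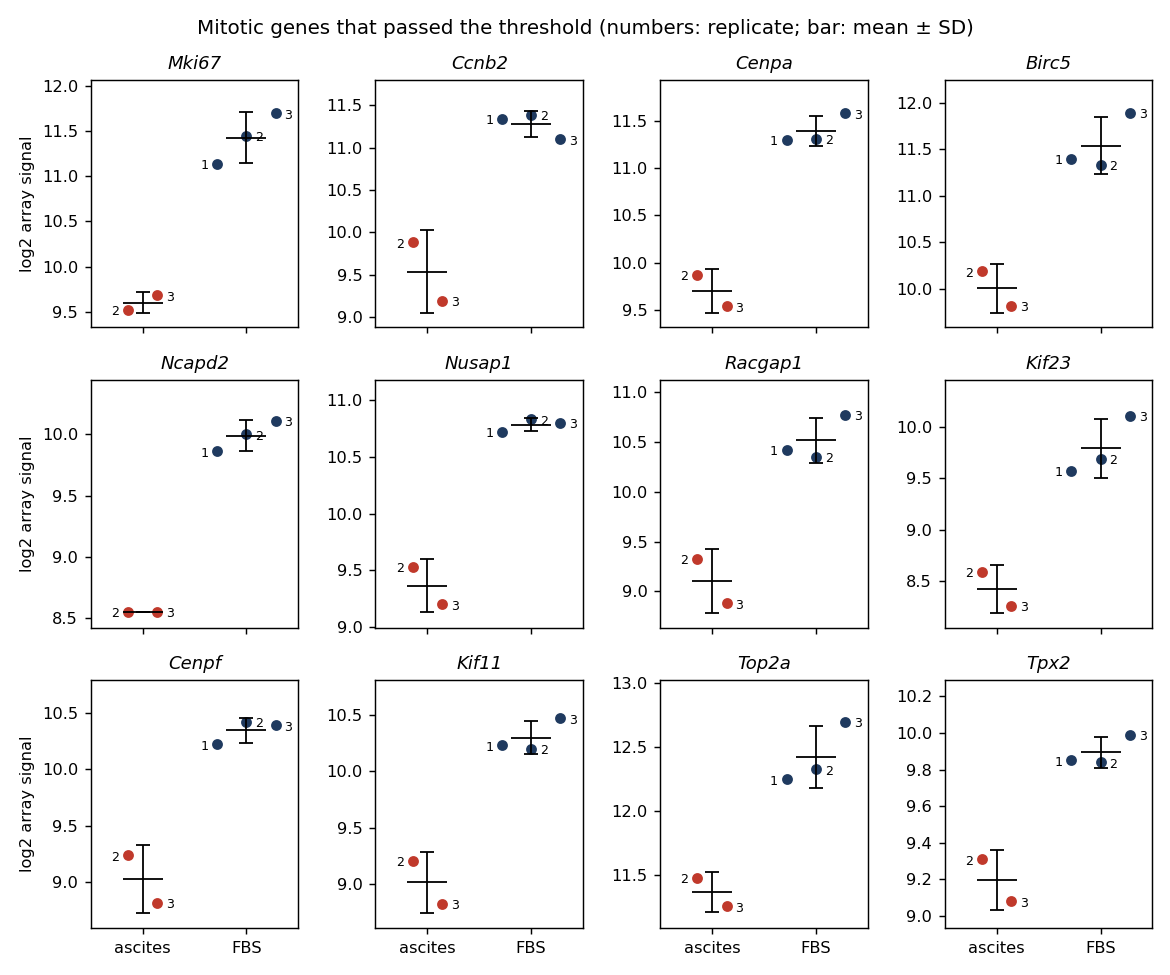
Log2 array signal (vertical axis, a separate scale for each gene that does not start at 0) of the 12 mitotic genes with an adjusted p under 0.05, for ascites (red, left) and FBS (blue, right). Points are arrays with their replicate number, and bars are the mean ± SD (n = 2 for ascites, n = 3 for FBS). The groups do not overlap in any panel.

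Set side by side, the medians of the roles ran from -1.53 for the passenger complex to -0.46 for the anaphase trigger, with kinesins (-1.10), cyclins and kinases (-1.07), kinetochore and checkpoint (-1.06), condensin and chromosome (-1.06), cytokinesis (-0.78) and spindle assembly (-0.70) between them. No difference between roles was tested. With the mean of all probe sets the condensin and chromosome median was -0.61.

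Of the 42 genes, 20 had more than 1 probe set, and all probe sets were lower in ascites for 16 of them. Probe sets that disagreed in direction were those of Foxm1 (0.02), Hmmr (0.06), Pttg1 (-0.06) and Top2a (0.14), and those that differed from the chosen one by over 1 in size were of Top2a, Kif23 (-0.20) and Nusap1 (-0.20). The mean signals of these alternative probe sets lay between 3.34 and 7.43, below those of the chosen ones. The mean of all probe sets moved the change by over 1.5 times for 9 genes: Cenpf, Top2a and Kif2c as given above, Kif23 (-0.87, adjusted p = 0.0486), Nusap1 (-0.81, adjusted p = 0.0172), Spc25 (-0.58), Incenp (-0.64), Hmmr (-0.30) and Pttg1 (0.25).

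A wider list of 112 other mitotic genes, of which 80 were measured, was also mostly lower in ascites. Of the 80, 71 had a lower mean in ascites, 61 were lower on every ascites array and 3 were higher on every ascites array. The median change was -0.43, and 16 fell and 0 rose. Over all genes 49.7% had a lower mean, 19.4% were lower and 18.6% higher on every ascites array, 2.59% fell and 2.69% rose. These are the shares behind the counts by role as well. The 3 higher genes were Zwint (log2 change 0.425, adjusted p = 0.0521), Kif2a (0.57, adjusted p = 0.0875) and Rbbp4 (0.14, adjusted p = 0.232). At an unadjusted p under 0.05, 44 were lower and 2 higher (12.5% and 11.7% of all genes). TTTGAA was in 38 of the 95 promoters found for this list (40.0%), against 18.1% of all promoters and 13.0% of those of genes on the array.

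Among regulators of cyclins and kinases, 3 of 11 fell. Melk, a kinase gene expressed in dividing cells, fell 3.71-fold (log2 change -1.89, SE 0.16, adjusted p = 0.0191), Mastl, which encodes the Greatwall kinase, 1.62-fold (adjusted p = 0.0485) and Cks1b, a CDK-binding protein gene, 1.36-fold (adjusted p = 0.0378). Of 20 other kinetochore and centromere genes, 3 fell, led by Ska1, whose product follows the depolymerising microtubule, at 3.66-fold (adjusted p = 0.0216). Cenpm fell 2.38-fold (adjusted p = 0.0463) and Zwilch, of the RZZ checkpoint complex, 1.88-fold (adjusted p = 0.0337). Of 15 other spindle, centrosome and midbody genes 3 fell, namely the abscission gene Cep55 at 2.96-fold (adjusted p = 0.0333), Depdc1a at 2.83-fold (adjusted p = 0.0393) and the spindle pole gene Aspm at 2.51-fold (adjusted p = 0.0263).

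Cohesin and other condensin genes fell in 3 of 12. Ncapg2, a subunit of condensin II only, fell 3.39-fold (log2 change -1.76, SE 0.11, adjusted p = 0.0159), Ncaph2 of the same complex 1.63-fold (adjusted p = 0.0245) and the cohesin gene Rad21 1.47-fold (adjusted p = 0.049). The cohesin core genes Smc1a and Smc3 changed by -0.28 and -0.15 without passing. Subunits and regulators of the anaphase-promoting complex had a median of -0.28 over 13 genes, and Anapc1, Anapc4 and Anapc11 fell by 0.51, 0.49 and 0.40 on the log2 scale (adjusted p = 0.0333, 0.0416 and 0.0332).

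Of the regulators that bind mitotic promoters, 1 of 9 fell. It was Rbl1, the gene of the pocket protein p107, at 2.31-fold (log2 change -1.21, SE 0.12, adjusted p = 0.0222). Mybl2, which encodes B-Myb, was at 7.23 and 6.80 in ascites, against 7.44, 7.52 and 8.52 in FBS (log2 change -0.81, adjusted p = 0.322), with no overlap but a wide FBS spread. Rbl2, the gene of the pocket protein p130, changed by -0.33 (adjusted p = 0.262) and E2f4 by 0.01 (adjusted p = 0.974). Cdkn1a, which encodes p21, was at 13.38 and 13.30 in ascites, against 10.65, 10.60 and 10.62 in FBS, and rose 6.57-fold (adjusted p = 0.00312). On all 3 FBS arrays Cdkn1a lay within 10.60 to 10.65. Any part of Cdkn1a or of these regulators in the change of the mitotic genes was not tested.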

How the data were processed

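Total RNA of the 5 samples was labelled with biotin and hybridised to Affymetrix mouse arrays, per the labels' protocols. Affymetrix Expression Console made the values, per the submitters' processing notes, with version and algorithm not given in the sources used here. These deposited values are taken as log2 from their range, and their distributions nearly coincide (array medians of 7.40 to 7.47), so they were not normalized again. They carry no detection call, and they need not show a change in the amount of RNA per cell. The number of arrays limits the precision.

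Of 22690 probe sets, 20380 had 1 gene in the platform annotation, 691 had several, 1555 were not listed and 64 were array controls. The brightest probe set stood for each of 12393 genes. limma 3.58.1 in R 4.3.3 compared the groups (lmFit and eBayes, two-sided, no covariate, threshold 0.05 after Benjamini-Hochberg adjustment over all genes), with 3 residual and 1.33 prior degrees of freedom. The calculation was tested on simulated data with independent noise, of the same size on every array for a given gene. That test does not cover FBS arrays as unequal as those here. Promoters came from RefSeq (GRCm38.p6). The members, roles and other lists were chosen with earlier results of these data known. Every measured member is named, with its value on every array for members past the threshold and for the largest and smallest change of each role. Of the other mitotic genes, up to 4 per role with the largest change past the threshold are named, and a few more were chosen after their values were seen.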

Additional observations from a re-analysis of the deposited data

How the results depend on the processing

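Under the 13 alternatives, the direction held for the mitotic genes except Ndc80, whose change ran from -0.777 to 0.0133 when 1 array was left out, the highest without ascites replicate 3 (adjusted p = 0.997). Calls did not hold, and the cause was not tested. Leaving out 1 array gave 0 to 22 fallen mitotic genes, 0 to 29 fallen and 0 to 2 risen other mitotic genes, and 0 to 1357 fallen and 0 to 1137 risen genes in all. With FBS replicates 1 and 2 averaged as 1 sample, 0 mitotic, 0 other mitotic and 0 of all genes passed in limma (2128 genes had an unadjusted p under 0.05, 31 of them lower mitotic genes). The replicate block, with the replicate number as a term, also gave 0, 0 and 0 (1891 and 20 at an unadjusted p under 0.05). Samples that share a number did not deviate together (correlations of 0.03 and 0.04), and no label says that numbers pair them. Array weights gave 26 fallen and 1 risen mitotic genes, 31 and 2 other mitotic genes, and 1371 and 1241 genes in all. The other mitotic genes had 1 risen gene with the highest-variance probe set, without the dimmest 25% of genes and with quantile normalization. Leaving out 1 array moved the anaphase trigger median between -0.887 and -0.0267, the kinesin median between -1.46 and -0.71 and the spindle assembly median between -0.97 and -0.583. The mean of all probe sets moved the kinetochore median to -0.81 and the condensin median to -0.61. The 38 genes without overlap numbered 38 to 41 under all alternatives. The SD over genes of the difference between FBS replicates 1 and 2 was 0.117, against 0.427 for either with FBS replicate 3, and whether replicates 1 and 2 are technical repeats was not tested.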
